A study of Mus musculus with 6 samples.

Results

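Cytosolic ribosomal protein transcripts were compared in cortex of HtrA2 knockout (HtrA2_KO) mice and of their wild type (WT) littermates at postnatal day 29. HtrA2 is a protease that resides between the membranes of mitochondria, and per the series' design text the cortex was chosen because neuronal loss had not been seen there. There were 3 HtrA2_KO arrays and 3 WT arrays, each a hybridisation of labelled total RNA from cortex to an Affymetrix mouse expression array, with no treatment in either group. The labels name neither the strain nor the design of the knockout allele. Members were probe sets annotated to a single gene symbol of the form Rpl or Rps with a number, or to Rplp0, Rplp1, Rplp2 or Rpsa, without S6 kinases and pseudogenes. The rule found 105 of 45037 probe sets, which name 49 of 18193 genes. The rule itself reads only the annotation, but the gene family was picked with earlier results of these data known.

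The cytosolic ribosome joins a small (40S) subunit, which binds the mRNA and reads its codons, to a large (60S) subunit, which links the amino acids. Each subunit is built of ribosomal RNA and of proteins mostly encoded by single genes spread over the genome. These proteins are made in matched amounts. Their mRNAs are abundant in every cell type, and most begin with a stretch of pyrimidines, the 5′ terminal oligopyrimidine tract, through which mTORC1 signalling controls their translation. The members here were 22 genes of 60S proteins, 21 of 40S proteins and 6 paralogues that differ from a common ribosomal protein (Rpl22l1, Rpl39l, Rpl3l, Rpl7l1, Rps27l and Rps4l). They lie on 17 chromosomes, with 7 genes each on chromosomes 7 and 17.

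The start regions of a few members are shown because the pyrimidine tract is the sequence feature for which this family is known. Each run holds 20 bases before and 15 bases from the start site annotated by RefSeq (GRCm38.p6), so the start is the base after the first 20. Capitals mark the longest unbroken run of C and T that covers the start or has an end within 5 bases of it. Rps18 and Rps27 passed the test, Rpl35 and Rpl4 are 60S members with large differences, Rps6 is the S6 kinase substrate, and Rpl11 and the muscle paralogue Rpl3l show short runs.
Rps18 (chr17:33955651-33955685, minus strand): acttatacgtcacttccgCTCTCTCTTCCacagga
Rps27 (chr3:90213634-90213668, minus strand): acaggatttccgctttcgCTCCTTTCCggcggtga
Rpl35 (chr2:39005117-39005151, minus strand): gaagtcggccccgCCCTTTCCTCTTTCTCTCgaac
Rpl4 (chr9:64173367-64173401, plus strand): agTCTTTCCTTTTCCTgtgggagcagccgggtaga
Rps6 (chr4:86857353-86857387, minus strand): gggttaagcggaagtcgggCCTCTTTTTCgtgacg
Rpl11 (chr4:136053379-136053413, minus strand): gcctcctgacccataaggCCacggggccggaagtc
Rpl3l (chr17:24727806-24727840, plus strand): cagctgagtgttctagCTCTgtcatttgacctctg

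RefSeq windows were found for 43 of the 49 genes. A run of at least 8 pyrimidines was present at 18 of them (41.9%), against 3068 of all 27025 genes with a window (11.4%). For a gene with several annotated starts the longest run was taken, and starts can be misplaced by some bases, so an absent run says only that these letters do not stand at the annotated start. The median log2 fold change was 0.21 for the 18 members with such a run and 0.20 for the other 25.

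Most ribosomal protein transcripts had slightly higher mean levels in HtrA2_KO cortex than in WT cortex. At 1 probe set per gene (for a gene with several, the brightest by its mean), 45 of 49 genes had a log2 fold change above 0, with a median of 0.21 (1.15-fold) and quartiles of 0.13 and 0.29. Over all genes the median was 0.02, and 54.9% were above 0. Few single members passed the test, limma's moderated test at an adjusted p under 0.05 (Benjamini-Hochberg over the whole array). Rps18 and Rps27 rose, 0 members fell, and 47 genes did not pass. Among all genes, 1.39% passed as higher and 1.05% as lower (2.44% in all), so the share of members past the test (2 of 49) tells little by itself. In RNA of a whole tissue, a change in the number of cells of a type and a change in RNA per cell cannot be told apart.

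The arrays of the groups did not overlap at most members. In 35 of 49 genes (71.4%) every HtrA2_KO array lay above every WT array, and in 0 genes did every HtrA2_KO array lie below. Over all genes these shares were 15.6% and 12.8%. At an unadjusted p under 0.05, 28 of 49 members were higher and 0 lower, against 11.3% and 9.19% of all genes. Read over probe sets, 66 of 105 lay wholly above WT and 1 wholly below, where each direction holds for 11.6% of all probe sets, and 95 of 105 were above 0, against 51.3%. At an unadjusted p under 0.05, 54 were higher and 1 lower, against 8.33% and 8.55% of all probe sets. After adjustment 3 of 105 passed as higher and 0 as lower, against 0.884% in each direction and 1.77% in all. Several probe sets share a gene and all are read from the same 6 arrays, so the members are not independent measurements.

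**Figure D1:**
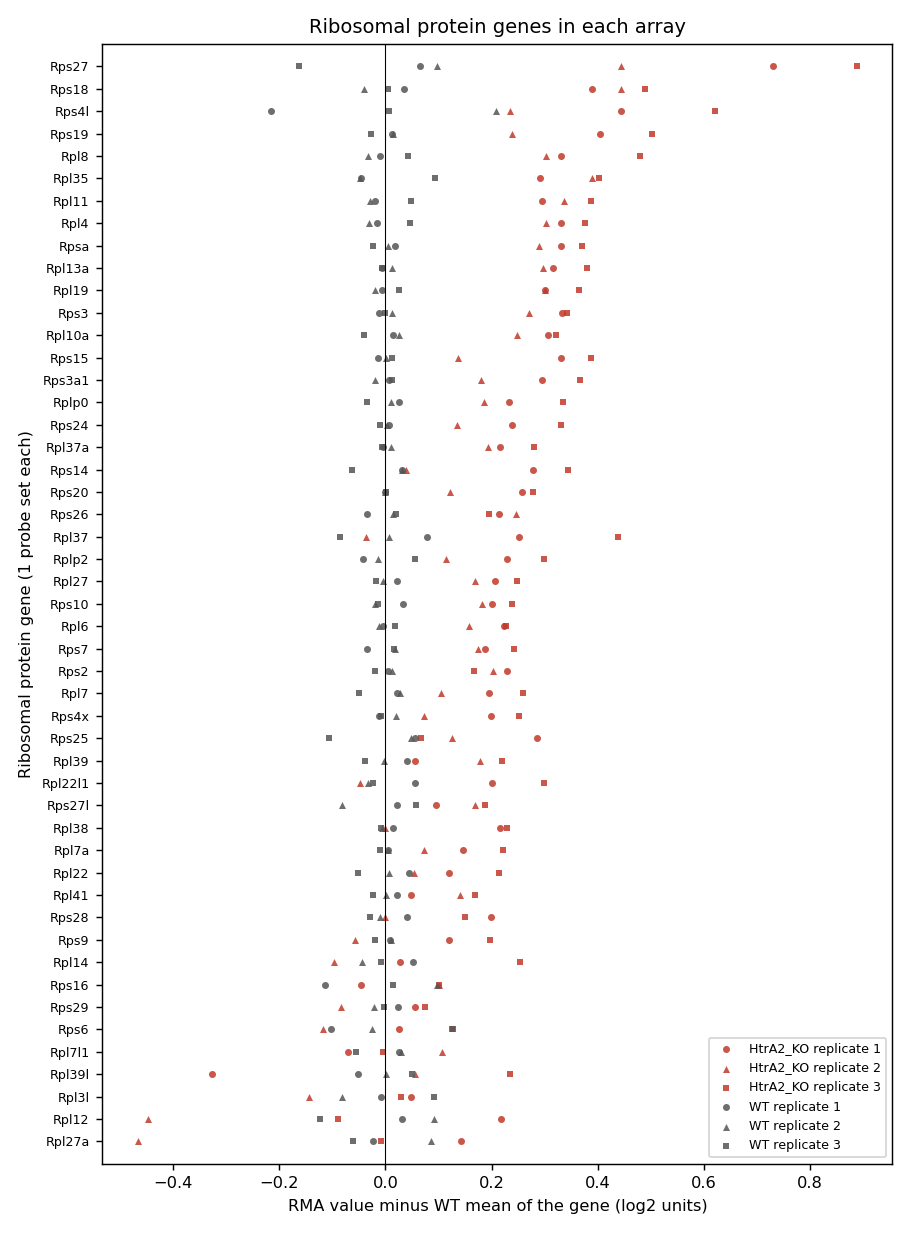
RMA value of each ribosomal protein gene in each array, minus that gene's WT mean, in log2 units (x axis), for the 49 genes (y axis, sorted by fold change, 1 probe set each); red symbols are HtrA2_KO arrays, grey symbols WT arrays, and the shape gives the replicate number. The red symbols lie right of all grey ones in 35 genes, and the replicate 2 triangles are often the leftmost of the red symbols.

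Rps18, a protein of the head of the small subunit, had log2 levels of 12.75, 12.80 and 12.85 in HtrA2_KO arrays, against 12.40, 12.32 and 12.36 in WT arrays. Every HtrA2_KO array was thus above every WT array. The rise was 0.44 ± 0.07 on the log2 scale (1.36-fold; ± is a standard error from the fit, n = 3 in each group throughout; limma adjusted p = 0.0289). A second probe set rose by 0.51 ± 0.07 (adjusted p = 0.0200), another at a like brightness differed by 0.21 ± 0.14, and 3 dim ones by -0.02 to 0.08. Rps27, a zinc finger protein of the small subunit, had log2 levels of 8.58, 8.29 and 8.73 in HtrA2_KO arrays, against 7.91, 7.94 and 7.68 in WT arrays. It rose by 0.69 ± 0.13 (1.61-fold, adjusted p = 0.0424), more than any other member, at the 1 probe set that names it alone. That probe set was dim for this family, with a mean of 8.19, and Rps27 was thus 1 of 9 member genes under 9. Both calls were lost on omission of any array other than HtrA2_KO replicate 2 (adjusted p between 0.0503 and 0.179).

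No single large subunit member passed the test. Of 22 genes 20 were above 0, the groups did not overlap in 17, and the median log2 fold change was 0.21. Rpl8, which lies near the peptidyl transferase centre, had log2 levels of 12.77, 12.74 and 12.92 in HtrA2_KO arrays, against 12.43, 12.40 and 12.48 in WT arrays, a difference of 0.37 ± 0.08 (adjusted p = 0.0618). Rpl35, at the exit of the peptide tunnel, had 13.08, 13.18 and 13.19 in HtrA2_KO arrays, against 12.75, 12.74 and 12.88 in WT arrays, a difference of 0.36 ± 0.08 (adjusted p = 0.0645). In both genes the lowest HtrA2_KO array exceeded the highest WT array by more than the range of the WT arrays.

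Rpl11, part of the 5S ribonucleoprotein that binds the p53 regulator MDM2 when ribosome assembly fails, had log2 levels of 12.89, 12.93 and 12.98 in HtrA2_KO arrays, against 12.58, 12.57 and 12.64 in WT arrays (difference 0.34 ± 0.07, adjusted p = 0.0586). Rpl4, whose loop lines the tunnel wall, differed by 0.34 ± 0.07, Rpl13a by 0.33 ± 0.07 and Rpl19 by 0.32 ± 0.07. The groups did not overlap in any of these 4 genes. The acidic stalk, which recruits translation factors to the ribosome, was represented by Rplp0, with a difference of 0.25 ± 0.07, and Rplp2, with 0.21 ± 0.08. Of the others, Rpl10a differed by 0.29 ± 0.07, Rpl37a by 0.23 ± 0.07, Rpl6 by 0.20 ± 0.07, Rpl7a by 0.15 ± 0.07 and Rpl41 by 0.12 ± 0.07, and none of these overlapped. Rpl37, at 0.22 ± 0.12, and Rpl14, at 0.06 ± 0.10, had overlapping groups. The 60S genes below 0 were Rpl27a at -0.11 ± 0.15 and Rpl12, of the stalk base, at -0.11 ± 0.16. Both had standard errors larger than the difference, and in both HtrA2_KO replicate 2 was the lowest of the 6 arrays. Rpl12 was read only from a probe set with a mean of 6.29, and Rpl27a from one of 9.53.

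Of the small subunit members, all 21 genes were above 0 and the groups did not overlap in 16, with a median of 0.22. Besides Rps18 and Rps27, Rps3, at the mRNA entry channel, had log2 levels of 13.24, 13.18 and 13.25 in HtrA2_KO arrays, against 12.89, 12.92 and 12.90 in WT arrays (difference 0.32 ± 0.07, adjusted p = 0.0645). Rpsa, also known as the laminin receptor, had 12.95, 12.91 and 12.99 in HtrA2_KO arrays, against 12.63, 12.62 and 12.59 in WT arrays (difference 0.33 ± 0.07, adjusted p = 0.0582). All HtrA2_KO arrays were again above all WT arrays in both genes. Rps19, the gene most often mutated in human Diamond-Blackfan anaemia, differed by 0.38 ± 0.09 (adjusted p = 0.0743). Rps3a1 differed by 0.28 ± 0.08, Rps15 by 0.28 ± 0.09, Rps14 by 0.22 ± 0.10, Rps20 by 0.22 ± 0.07, Rps7 by 0.20 ± 0.07 and Rps2 by 0.20 ± 0.07. Rps26, which contacts mRNA upstream of the start codon, differed by 0.22 ± 0.07. Of the 11 members mutated in that anaemia in humans, 11 were above 0 and 9 lay wholly above WT, with a median of 0.22. Over all 49 members, 45 were above 0 and 35 lay wholly above WT, with a median of 0.21. Among all genes, 54.9% were above 0 and 15.6% lay wholly above WT. At an unadjusted limma p under 0.05, 9 of the 11 were higher, against 28 of the 49 members and 11.3% of all genes. Whether these 11 genes differ from the other members was not tested.

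Not every small subunit gene was separated. Rps29 had log2 levels of 14.00, 13.86 and 14.02 in HtrA2_KO arrays, against 13.97, 13.92 and 13.94 in WT arrays, and differed by 0.02 ± 0.08. The HtrA2_KO arrays thus lay on both sides of the WT arrays. At 2 other Rps29 probe sets, which differed by 0.10 ± 0.07 and 0.15 ± 0.08, they lay wholly above WT. Rps6, the substrate of the S6 kinases, differed by 0.01 ± 0.10 at a probe set with a mean of 8.27, and by 0.53 ± 0.19 at a dimmer one of 5.99. Rps16 differed by 0.05 ± 0.09, but its single probe set had a mean of 3.96. Among the 35 members with a mean of at least 12, overlap was left in 5, Rpl22l1, Rpl38, Rps28, Rps29 and Rps9. In each of these the lowest HtrA2_KO array was replicate 2. This was read at the brightest probe set of each gene. Other Rps28 probe sets, with means of 13.34 and 13.68, differed by 0.21 ± 0.07 and 0.20 ± 0.07 and lay wholly above WT.

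Paralogues were compared with the common protein they resemble, each by its own probe set. Rpl22l1 differed by 0.15 ± 0.10 and Rpl22 by 0.13 ± 0.08. Other Rpl22 probe sets, with means of 10.26 and 10.96, differed by 0.31 ± 0.08 and 0.25 ± 0.07. Rps27l, known as a p53 target, differed by 0.15 ± 0.07, while Rps27 rose. Rps4l had log2 levels of 10.34, 10.13 and 10.51 in HtrA2_KO arrays, against 9.68, 10.10 and 9.90 in WT arrays, a difference of 0.43 ± 0.13 (adjusted p = 0.152), and Rps4x, encoded on the X chromosome, differed by 0.17 ± 0.08. The WT arrays of Rps4l were spread over a wider range than those of Rps4x. Rpl7l1 differed by 0.01 ± 0.08 and Rpl7 by 0.19 ± 0.07, with other Rpl7 probe sets at 0.21 ± 0.09 and 0.31 ± 0.08. Other Rpl7l1 probe sets disagreed in sign, at 0.19 ± 0.09 and at -0.20 ± 0.09, the single member probe set wholly below WT. Rpl39l, a testis paralogue, differed by -0.01 ± 0.14 and Rpl39, which lines the exit tunnel, by 0.15 ± 0.08. Rpl3l, which replaces the common protein in striated muscle, differed by -0.02 ± 0.09 with a mean of 4.40. None of the 6 paralogues passed the test, and the differences between paralogue and parent were not tested.

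The size of the difference went with brightness. All 58 member probe sets with a mean of at least 12 were above 0, with a median of 0.24, and 52 of them did not overlap (89.7%). Across all 1033 probe sets of that brightness the median was -0.01 and 24.0% lay wholly above WT. Those at this brightness that name no ribosomal protein gene, 903 in all, had a median of -0.04, and 14.8% lay wholly above WT. Among the 29 member probe sets with a mean under 9 the median was 0.04 and 5 (17.2%) lay wholly above WT. Over all probe sets that share was 5.53% at a mean under 6 and 12.9% at a mean of 6 to 9. The members' median was thus higher among bright than among dim probe sets.

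**Figure D2:**
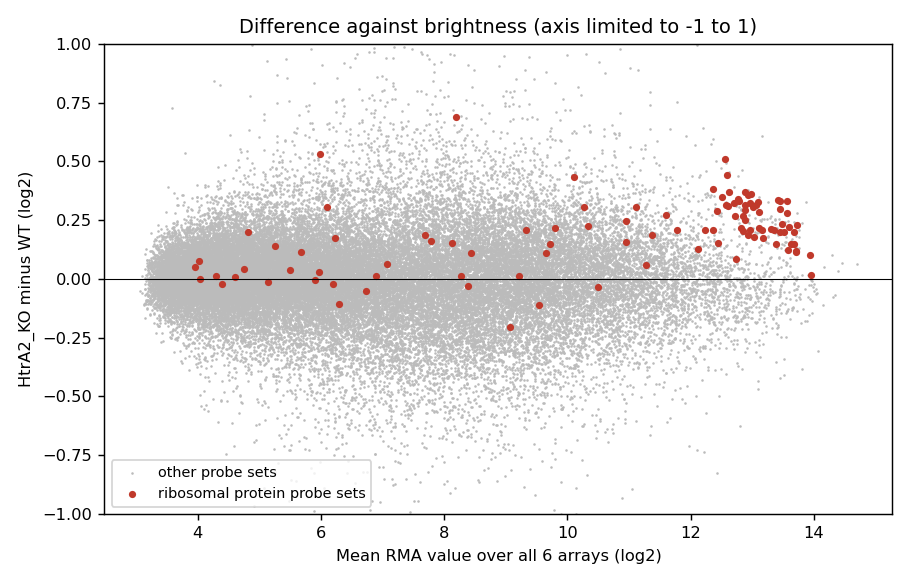
Log2 fold change (HtrA2_KO minus WT, y axis, limited to -1 to 1) against the mean RMA value over all 6 arrays (x axis, log2), with ribosomal protein probe sets in red and all other probe sets in grey. The 58 red points at a mean of 12 or more all lie above 0, and of the 29 red points under 9, 22 do.

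Probe sets of one gene were compared next. Of 49 genes, 24 had more than 1 probe set and 7 had probe sets on both sides of 0. For Rpl35, 5 bright probe sets differed by 0.33 to 0.37, and a dim one by 0.20 ± 0.12. For Rps24, 4 bright probe sets differed by 0.23 to 0.31, and 2 dim ones by 0.03 and 0.12. For Rps10, 5 probe sets with means of 10.33 to 13.16 differed by 0.21 to 0.27, and the dim one by -0.01. For Rpl13a, probe sets with means of 13.57 and 13.09 each differed by 0.33, and those with means of 11.27 and 10.50 by 0.06 and -0.03. For Rps20, 2 bright probe sets differed by 0.18 and 0.22, and 2 dim ones by 0.18 and 0.31.

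**Figure D3:**
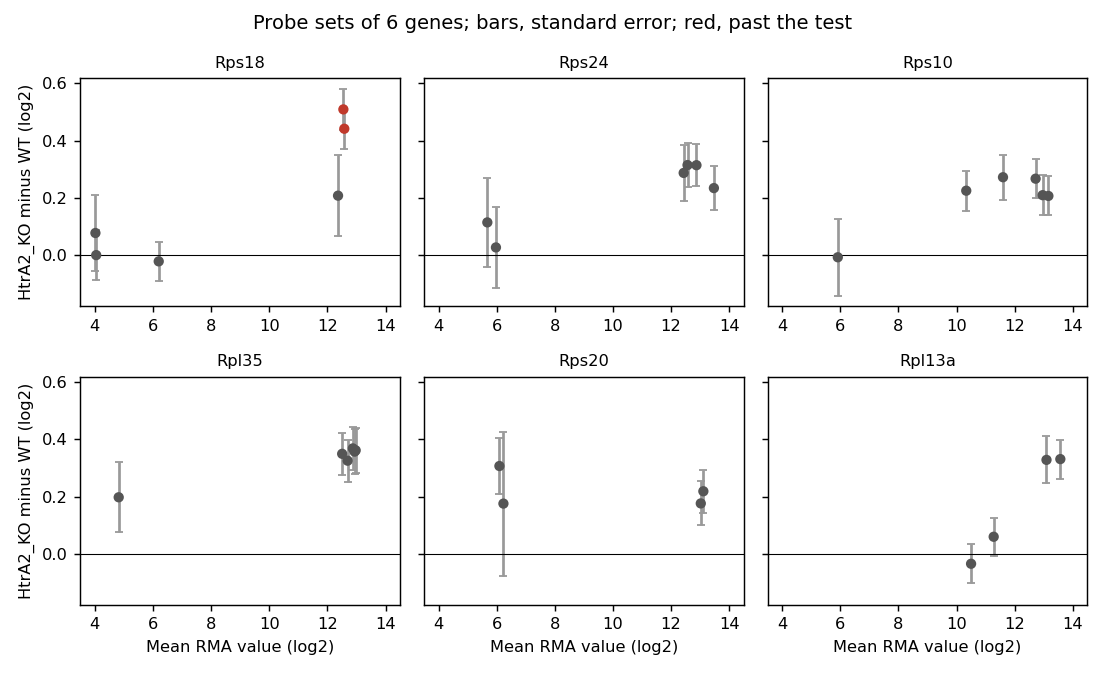
Log2 fold change (HtrA2_KO minus WT, y axis) of every probe set of 6 genes against its mean RMA value (x axis, log2); bars are standard errors and red points passed the test. Within Rps18, Rps24 and Rps10 the bright probe sets lie above the dim ones, and only 2 probe sets of Rps18 passed.

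Ribosomal protein genes have many near-identical processed pseudogenes, and probes can catch more than one sequence, so the gene behind a value is uncertain where copies match. The platform's endings _a_at (transcripts of the same gene), _s_at and _x_at (possibly of other genes) mark probe sets whose probes match several transcripts. The 34 members with no such ending had a median of 0.09, but 24 of them had a mean under 9. The 5 with a mean of at least 12, which stand for Rpl19, Rpl27, Rplp0, Rps15 and Rpsa, differed by 0.21 to 0.33, and all 5 did not overlap. The 53 bright ones with such an ending had a median of 0.23. A further 110 probe sets name a ribosomal protein gene together with another gene and are not members. Of these, 103 were above 0 with a median of 0.21, 12 rose and 0 fell, where 51.3% of all probe sets were above 0, 0.884% rose and 0.884% fell. The genes behind these 12 are not named, since each probe set names several. The 110 probe sets name 43 ribosomal protein symbols, of which 28 are named by no probe set alone and so are not members. Counts of members, by subunit too, thus do not cover every ribosomal protein gene on the array.

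The difference was present in each knockout array and smallest in replicate 2. The median deviation of the 35 bright genes from their WT means was 0.23, 0.17 and 0.30 in HtrA2_KO replicates 1, 2 and 3, against 0.0068, 0.0017 and -0.0081 in WT replicates 1, 2 and 3. All 35 genes lay above their WT mean in HtrA2_KO replicates 1 and 3, and 31 did in replicate 2. Replicate 2 was the lowest knockout array in 28 of the 35 genes, and replicate 3 the highest in 32. Over all probe sets of a mean of at least 12, the median deviation was 0.0074, -0.0421 and -0.0026 in HtrA2_KO replicates 1, 2 and 3. Bright probe sets in general were thus also lowest in replicate 2. HtrA2_KO replicate 2 also had narrower quartiles, 4.90 and 8.54, against 4.76 to 4.82 and 8.62 to 8.65 in the other arrays. Within groups the median SD of bright member probe sets was 0.07 in HtrA2_KO arrays and 0.03 in WT arrays.

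The count of members past the test differed widely between fits. With a spread that is allowed to vary with brightness (limma-trend with robust moderation) 44 of 105 probe sets passed as higher and 0 as lower, against 2.04% and 1.89% of all probe sets. At 1 probe set per gene these were 24 genes, among them Rps18, Rpl13a, Rpl4, Rps3, Rpl19, Rpsa, Rpl11, Rpl35 and Rpl8, with adjusted p between 0.00167 for Rps18 and 0.00826 for Rpl8. Without HtrA2_KO replicate 2, 36 probe sets passed as higher and 0 as lower, against 4.46% and 2.28% of all probe sets. Without any one of the other 5 arrays 0 passed limma's test, with 40 to 49 of the 105 at an unadjusted p under 0.05 in either direction, against 10.8% to 15.9% of all probe sets. In these 5 fits 0.144% to 0.837% of all probe sets passed in either direction, with 0.0888% as higher and 0.0555% as lower without WT replicate 2. With array weights 41 passed as higher, against 5.4% of all probe sets (3.94% as lower). With probe sets of a mean under 6 left out 21 of 90 passed as higher, against 3.18% (3.04% as lower). After a further quantile normalization 8 of 105 passed as higher, against 1.31% (1.09% as lower). No member passed as lower in these fits.

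**Figure D4:**
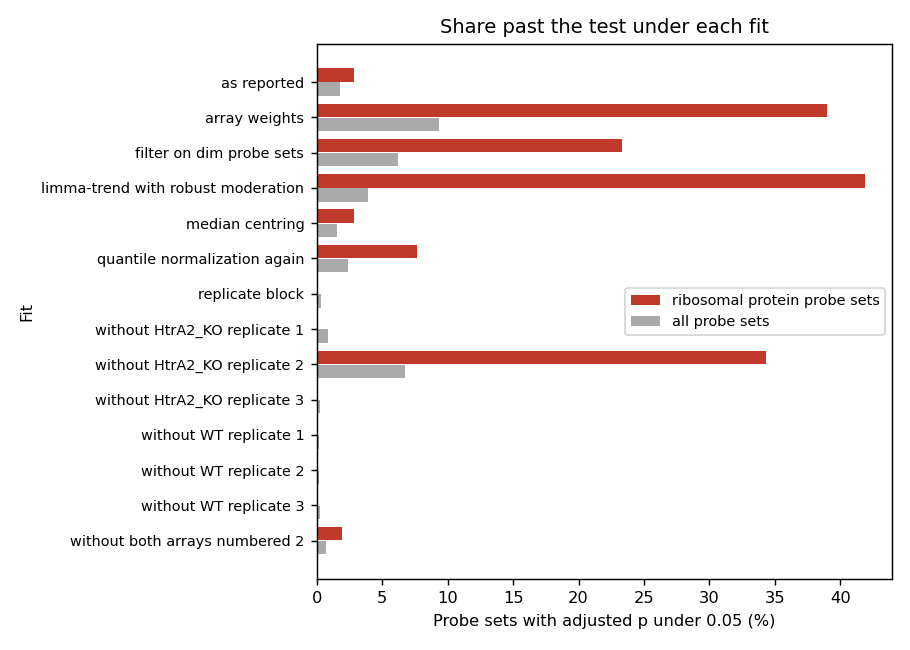
Share of ribosomal protein probe sets (red) and of all probe sets (grey) with an adjusted p under 0.05, in percent (x axis), under each fit (y axis). The red bar is the longer one wherever any member passed, from 1.90% without both arrays numbered 2 to 41.9% with limma-trend.

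Other genes of cytosolic translation were read from lists at 1 probe set per gene. Translation factors and other mRNAs known for a pyrimidine tract had a median of 0.20: of 17 measured genes 3 rose, 0 fell, and 13 lay wholly above WT. Among all genes 1.39% rose, 1.05% fell and 15.6% lay wholly above WT. Eif3f, a subunit of the initiation factor that holds the 40S subunit, had log2 levels of 12.45, 12.38 and 12.59 in HtrA2_KO arrays, against 11.96, 12.02 and 12.05 in WT arrays, and rose by 0.46 ± 0.08 (adjusted p = 0.0375). Eif4b, a helicase cofactor, rose by 0.42 ± 0.07 (adjusted p = 0.0385), and Eif3e, of the same complex as Eif3f, by 0.36 ± 0.07 (adjusted p = 0.0434). Fau, whose product is cleaved to give the 40S protein eS30, had 12.51, 12.46 and 12.64 in HtrA2_KO arrays, against 12.28, 12.20 and 12.23 in WT arrays, a difference of 0.30 ± 0.08 (adjusted p = 0.10). The elongation factor gene Eef1a1 differed by 0.05 ± 0.07 and Tpt1 by -0.01 ± 0.07.

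Ribosome biogenesis factors, which make and process ribosomal RNA and assemble subunits, had a median of 0.07. Of 40 measured genes 1 rose, Wdr74, a nucleolar factor of 60S assembly, by 0.35 ± 0.07 (adjusted p = 0.0492), and 0 fell. Factors of ribosome stalling, rescue and quality control had a median of -0.01, with 0 of 19 past limma's test and 1 higher and 2 lower at an unadjusted p under 0.05, where 11.3% and 9.19% of all genes lie. There Gigyf2, which represses translation of stalled mRNAs, differed by -0.27 ± 0.09, and Tcf25, of the ribosome quality control complex, by -0.18 ± 0.07. Among regulators of ribosomal protein mRNA translation and S6 phosphorylation, 1 of 19 rose and 1 fell, with a median of 0.09. Sesn2, a stress-induced inhibitor of mTORC1, had log2 levels of 8.29, 8.37 and 8.02 in HtrA2_KO arrays, against 7.65, 7.59 and 7.42 in WT arrays, and rose by 0.67 ± 0.11 (adjusted p = 0.0309). Rps6ka3, which encodes the kinase RSK2, fell by 0.49 ± 0.08 (adjusted p = 0.0263). Mitochondrial ribosomal protein genes, which serve the separate ribosome of the organelle, had a median of 0.12, with 4 of 76 past the test as higher and 0 as lower. Of these 76 genes, 62 (81.6%) were above 0, against 54.9% of all genes. In 35 (46.1%) the HtrA2_KO arrays lay wholly above WT and in 8 wholly below, against 15.6% and 12.8% of all genes. Against the 1.39% of all genes that rose and 1.05% that fell, the counts in the biogenesis, quality control and regulator lists, at most 1 in each direction, are too small to set these lists apart. The differences between these lists were not tested.

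**Figure D5:**
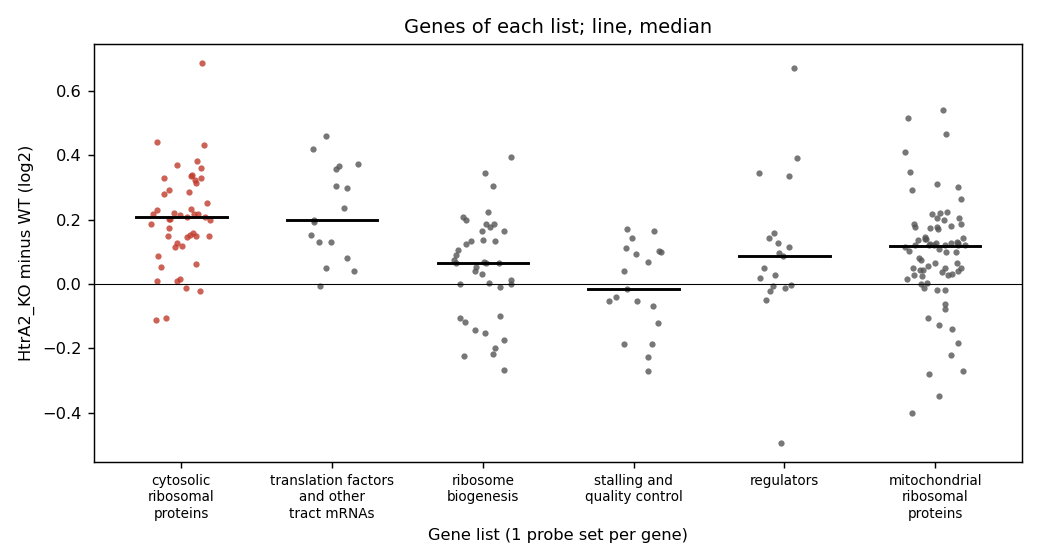
Log2 fold change (HtrA2_KO minus WT, y axis) of every measured gene of 6 gene lists (x axis); each point is a gene, read at 1 probe set, and black lines are medians. The median was 0.21 for cytosolic ribosomal proteins and 0.20 for translation factors and other tract mRNAs, and lay between -0.01 and 0.12 in the other lists.

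Markers of several cell types also differed between the groups. Over all genes, 1.39% passed the test as higher and 1.05% as lower, and 54.9% were above 0. Of all genes 15.6% lay wholly above WT and 12.8% wholly below. The mean log2 level of 5 meningeal markers was 8.74 to 9.25 in HtrA2_KO arrays, against 8.43 to 8.75 in WT arrays. It was lowest among HtrA2_KO arrays in replicate 2, with 5 of 5 markers above 0 and 0 past the test. The level of 5 microglial markers was 9.24 to 9.39 in HtrA2_KO arrays, against 9.52 to 9.74 in WT arrays, with 2 of 5 past the test as lower. Of 5 excitatory neuron markers it was 11.02 to 11.11 in HtrA2_KO arrays, against 11.34 to 11.37 in WT arrays, with 1 of 5 past the test as lower. These 5 were not alike: 3 lay wholly below WT, but Slc17a7 differed by 0.04 ± 0.08 and Camk2a by -0.05 ± 0.07. For 3 general neuron markers the mean level was 12.31 to 12.48 in HtrA2_KO arrays, against 12.60 to 12.65 in WT arrays. Of these, 3 of 3 lay wholly below WT and 0 passed the test. Astrocyte markers stood at 11.38 to 11.46 in HtrA2_KO arrays, against 11.59 to 11.68 in WT arrays. Of these 5 markers, 4 lay wholly below WT and 1, Gja1, wholly above it, with a difference of 0.14 ± 0.07. Among the 4, Aqp4, the water channel of astrocyte endfeet, fell by 0.59 ± 0.09 (limma adjusted p = 0.0273), the only astrocyte marker past the test. Oligodendrocyte markers stood at 11.45 to 11.64 in HtrA2_KO arrays, against 11.68 to 11.87 in WT arrays, with 4 of 4 below 0 and 0 past the test. Markers of inhibitory neurons stood at 10.83 to 10.96 in HtrA2_KO arrays, against 10.82 to 10.96 in WT arrays, and those of endothelium at 8.43 to 8.51 in HtrA2_KO arrays, against 8.29 to 8.40 in WT arrays. Of 2 erythroid markers the level was 5.40 to 5.97 in HtrA2_KO arrays, against 6.25 to 6.34 in WT arrays, and Alas2, of haem synthesis, fell by 0.87 ± 0.16 (limma adjusted p = 0.0416). Choroid plexus markers stood at 6.26 to 6.45 in HtrA2_KO arrays, against 6.58, 8.70 and 6.87 in WT replicates 1, 2 and 3, so WT replicate 2 stood apart from the other arrays. Cerebellar markers, 2 in number, stood at 5.22 to 5.37 in HtrA2_KO arrays, against 5.13 to 5.21 in WT arrays. The part of these marker differences in the ribosomal protein difference was not tested. Htra2 itself fell by 2.27 ± 0.17 on the log2 scale at 1 of its probe sets (limma adjusted p = 0.00227) and rose by 1.11 ± 0.08 at the other (adjusted p = 0.00169), and the sources used here do not say where the probes lie relative to the deletion.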

How the data were processed

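The deposited table holds log2 RMA values of 45101 probe sets, 1 column per array. Per the submitters' processing notes the authors used RMA (version not given), which corrects background, quantile normalizes and summarizes probe sets. No source states the log base, read as 2 from the range of values. Quantile normalization removes changes shared by most genes. After removal of 64 array controls, 45037 probe sets were fitted with limma 3.58.1 in R 4.3.3 (group as the only term, two-sided, Benjamini-Hochberg over all probe sets). Gene names come from the platform annotation, and all 105 member probe sets matched the current RefSeq symbol by gene identifier. Probe sets with several symbols were not named. The labels do not say that each array is a separate animal, so p-values reflect only spread between these arrays, possibly technical, and the number of arrays limits precision. They give no batch. On simulated data of this design over 45037 probe sets, the fit recovered 19 of 100 changes of 0.5 and 78 of 100 changes of 1 log2 unit, with 3 false calls among 100. The changed probe sets were drawn at any brightness, and changes as small as the members' median were not simulated, so these shares are not those of the members.

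The members and lists were chosen with earlier results of these data known. Named genes were all members past the test, the 10 smallest p in each direction, paralogues with their parents, and list members by smallest p. Other genes were named as examples after their values were seen. Alternatives were further quantile normalization, median centring, a filter at a mean of 6, limma-trend with robust moderation, array weights, the replicate number as a block, other thresholds, unsuffixed probe sets, the mean over a gene's probe sets, and omission of each array or of both arrays numbered 2.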

Additional observations from a re-analysis of the deposited data

How the results depend on the processing

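The median log2 fold change over ribosomal protein genes (0.21) ran from 0.19 to 0.23 without 1 array, was 0.23 without both arrays numbered 2, and 0.13 over the 26 genes with an unsuffixed probe set. Counts of members past the test moved widely. Of 105 probe sets (3 as reported), 44 passed with limma-trend, 41 with array weights, 8 after further quantile normalization, 0 with the replicate block, 0 at an adjusted p under 0.01 and 23 under 0.1. Of 90 probe sets above the dim filter 21 passed, and of 34 unsuffixed ones 1. Of 49 genes (2 as reported), 24, 19, 5, 0, 0 and 12 passed under the same 6 settings in that order. Of 46 genes above the dim filter 12 passed, and of 26 unsuffixed ones 1. With the mean over each gene's probe sets 8 genes passed, and without both arrays numbered 2 just 1. Leaving out 1 array gave 0 to 36 probe sets and 0 to 15 genes. Under limma with the replicate block 48 member probe sets had an unadjusted p under 0.05, against 14% of all probe sets in that fit. Replicates of equal number did not deviate together (correlations of -0.20, -0.04 and -0.17), and the labels do not pair them. The probe sets of Rps18 and Rps27 that passed lost their calls under the block and without any array but HtrA2_KO replicate 2, and those of Rps18 also without both arrays numbered 2.

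Over all 105 member probe sets, 23 changed sign under at least 1 setting (12 of them without HtrA2_KO replicate 2), with differences as reported of -0.11 to 0.18. The named probe sets account for 13 instances, in 5 genes. Leaving out 1 array put Rpl12 between -0.27 and 0.0642, Rpl27a between -0.24 and 0.0670, Rpl39l between -0.13 and 0.15, Rpl3l between -0.0630 and 0.0394, and Rpl7l1 between -0.0371 and 0.0507. HtrA2_KO replicate 2 reversed all of these but Rpl39l, HtrA2_KO replicate 1 reversed Rpl39l, and WT replicate 3 reversed Rpl39l, Rpl3l and Rpl7l1. Without both arrays numbered 2, Rpl12 was at 0.11, Rpl27a at 0.11 and Rpl7l1 at -0.0226. With array weights Rpl3l was at 0.0514 and Rpl7l1 at -0.0351. The fewer calls without an array come with fewer arrays fitted, and the cause of the other moves was not tested.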
